A study of Mus musculus with 62 samples.

Results

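B2 RNA was profiled in HT-22 cells, a mouse hippocampal neuronal line, after exposure to amyloid beta 1-42 peptide (Aβ42) or to a peptide of the reverse sequence. The 8 libraries described here were chosen from the labels as the short-RNA libraries of cells that had received the scramble LNA, 4 for each peptide. They are 8 of 14 HT-22 short-RNA libraries and of 62 libraries in all. LNA is a locked nucleic acid oligonucleotide, and the scramble LNA was the control for one directed at Hsf1. Per the labels, cells carried either LNA for 24 h, scramble at 50 uM as the labels state it or anti-Hsf1 at 150 nM, and then received 30 uM of peptide. The peptides were dissolved in DMSO, so every group shares the solvent and received an LNA and a peptide, and the 8 libraries share the scramble LNA. No group without peptide was analysed here, and every value below is Aβ42 set against the reverse peptide. The labels give 4 passages for the cells, and the series' design text calls the libraries biological replicates without saying more on how the cultures were separated. HT-22 is a single immortalised line, and the labels describe no second line.

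B2 elements are short interspersed repeats of rodent genomes that RNA polymerase III transcribes into noncoding RNA from an internal promoter near the 5′ end. B2 RNA is known to bind RNA polymerase II and to hold down transcription, and during heat shock and other stress it is cut, a process to which the Polycomb protein Ezh2 has been linked. The comparison asks whether amyloid peptide alters where along the element the short B2 RNA counts fall. Each B2 file runs over 119 positions, from 2 to 120, with a whole-number count at each. Positions are taken to run from the 5′ end, and any part of the element beyond position 120 is not covered. The sources used here do not say whether a count marks a fragment's end or a base it covers, so a higher share at a position is not called a cut site. The count at each position was divided by the library's B2 total, so that each value is a share of that library's B2 counts. A lower share at one position therefore raises the shares elsewhere. Changes in the amount of B2 RNA cannot be read from shares, and the sources used here do not give the sequencing depth behind a B2 total.

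B2 totals were 3992, 3820, 4175 and 2741 counts in Aβ42 replicates 1 to 4, and 2464, 1550, 1873 and 4246 in reverse replicates 1 to 4. Reverse replicate 4 thus held the highest total of the 8, and the other 3 reverse libraries held the lowest 3. Profiles also set that library apart. The difference between a pair of profiles was taken as the percent of counts that would have to move to make them alike. Reverse replicate 4 lay 17.1 percentage points on average from the Aβ42 libraries and 20.5 from the other reverse libraries, while each of the other 7 lay nearer its own group. Such a distance also grows when counts are few, and the other 3 reverse libraries held the fewest. The part of depth in these distances was not tested. Results are given with and without reverse replicate 4. It was singled out by the same shares that are tested. Leaving out the reverse library most like the Aβ42 libraries favours calls, so calls made only without it are not read as findings. Replicates of a group differed by more than counting error, with a chi-square of 3.48 per degree of freedom over 100 positions in Aβ42 and 2.76 in reverse libraries. Within a group no pair looked like 1 library deposited under both names. Pairs across the peptides were not given this chi-square check. By profile the nearest pair of the 8 lay across the peptides, Aβ42 replicate 4 and reverse replicate 4, at 13.6 percentage points.

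The counts were unevenly spread over the element in both groups. With even spread each position would have held 0.840% of the total, but the mean over the 8 libraries ran from 0.155% at position 67 to 4.52% at position 2. The 10 highest positions, which were 2, 3, 6, 7, 31 to 34, 47 and 48, held 27.9% of the counts. They lie in 4 clusters: positions 2 and 3 at the 5′ end, 6 and 7 just after it, 31 to 34, and 47 and 48. A lower and broader rise lay between positions 95 and 110, and the stretch from 51 to 70 held only 0.281% per position.

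**Figure D1:**
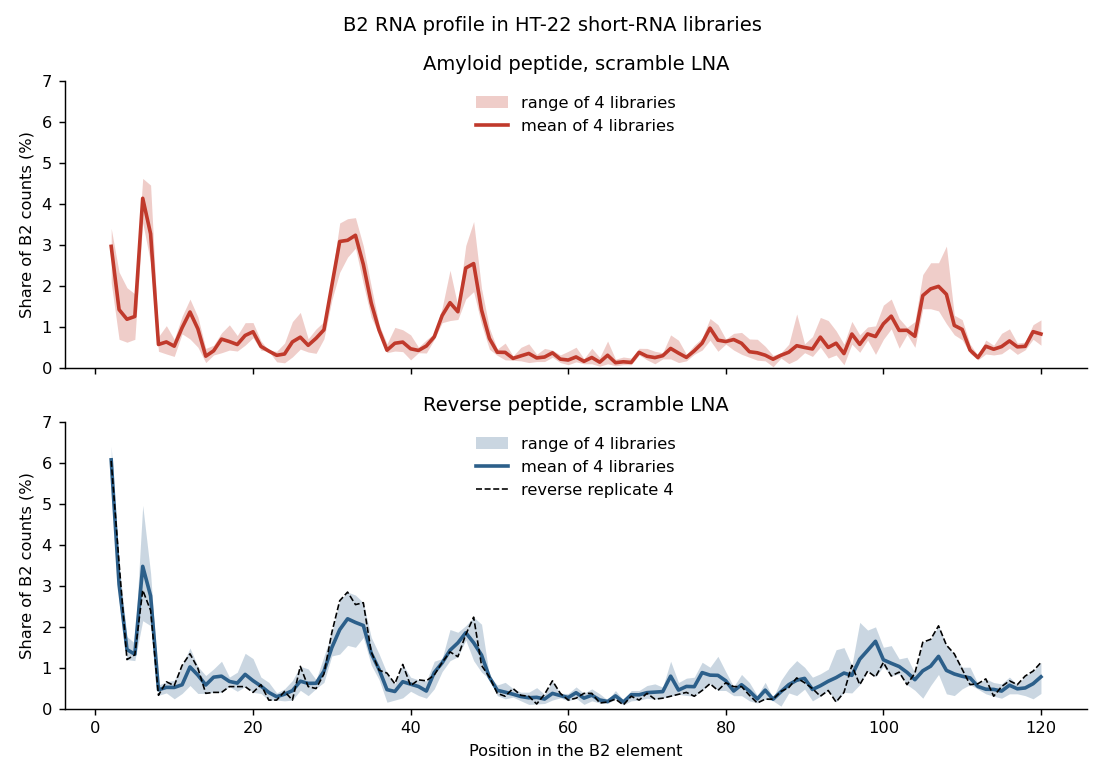
Share of the B2 counts (percent, y axis) at positions 2 to 120 of the B2 element (x axis), with the mean of 4 libraries as a line and their range as a band; the dashed line is reverse replicate 4. The start of the profile is lower in the Aβ42 libraries (2.96% at position 2) than in the reverse libraries (6.08%), and reverse replicate 4 follows its own group there and lies above the reverse mean near position 107.

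The clearest difference was at the 5′ end, where the shares of B2 counts at positions 2 and 3 were about halved in the cells given Aβ42. At position 2 the share was 2.08%, 3.40%, 3.23% and 3.14% in Aβ42 replicates 1 to 4, and 6.41%, 5.87%, 5.98% and 6.05% in reverse replicates 1 to 4. Every reverse library, replicate 4 included, lay above every Aβ42 library, and the reverse libraries lay close together. The means were 2.96% ± 0.600 and 6.08% ± 0.234 (SD, n = 4 each), a log2 change of -1.05 ± 0.22 (SE) with an adjusted p of 0.000209 by edgeR's quasi-likelihood test. At position 3 the share was 1.10%, 1.54%, 0.695% and 2.33% with Aβ42 and 3.17%, 2.65%, 2.78% and 3.56% with the reverse peptide. The groups did not overlap here either, with Aβ42 replicate 4 the nearest to the reverse libraries. The log2 change was -1.14 ± 0.26 (adjusted p = 0.00123 by edgeR). Mean counts of 131.5 and 64.8 per library stood behind these values.

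The fall stopped within the first positions. Positions 2 and 3 together held 4.38% ± 1.03 of the counts with Aβ42 and 9.12% ± 0.562 with the reverse peptide, whereas positions 4 to 10 held 11.6% ± 1.96 and 10.5% ± 2.25, with overlapping groups (SD, n = 4 each; these stretches were chosen after their values were seen and were not tested). At position 6 the share was 4.43%, 3.95%, 4.62% and 3.54% with Aβ42 and 2.15%, 4.97%, 3.90% and 2.90% with the reverse peptide. At position 7 it was 4.46%, 2.57%, 3.14% and 2.92% against 2.03%, 3.29%, 3.31% and 2.40%. Neither position passed the test (log2 changes of 0.26 and 0.25, adjusted p = 0.713 and 0.742 by edgeR), and at both the reverse libraries spread across most of the Aβ42 range. Neighbours only 3 positions apart thus differed in opposite directions on average, of which only the lower share at positions 2 and 3 was called.

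Over the positions in the files, 3 of 100 tested were called at an edgeR adjusted p below 0.05, all lower with Aβ42 (percent called 3.00, in that direction also 3.00). The third was position 99. A position was tested when its mean count was at least 10. At an unadjusted p below 0.05 there were 17 positions (17.0%), 7 higher and 10 lower with Aβ42. The groups did not overlap at 6 of all 119 positions (5.04%). Besides 2 and 3 these were 33, where all Aβ42 libraries were higher, and 66, 111 and 112, where all were lower; the last 3 are named after their values were seen. Their mean counts were low, from 6.13 at position 66 to 17.3 at position 111, and none was called.

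Single libraries moved this count. Without reverse replicate 4 there were 12 calls, which held the 3 above, and without Aβ42 replicate 2 there were 5, with the 3 above among them. Leaving out Aβ42 replicate 3 or reverse replicate 1 left 1 call each, position 2. Position 2 was called in all 15 alternatives that tested it, with log2 changes from -1.16 to -0.92. Position 3 was called in 13 of 15, and its adjusted p rose to 0.0542 without Aβ42 replicate 3 and 0.0747 without reverse replicate 1 (edgeR). With the B2 total taken only over positions above 20, where positions 2, 3 and the rest of the 5′ part are not tested, 0 of 81 positions were called by edgeR and 13 had an unadjusted p below 0.05. DESeq2, with its own size factors, called 2 of 100 positions, and these were 2 and 3.

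**Figure D2:**
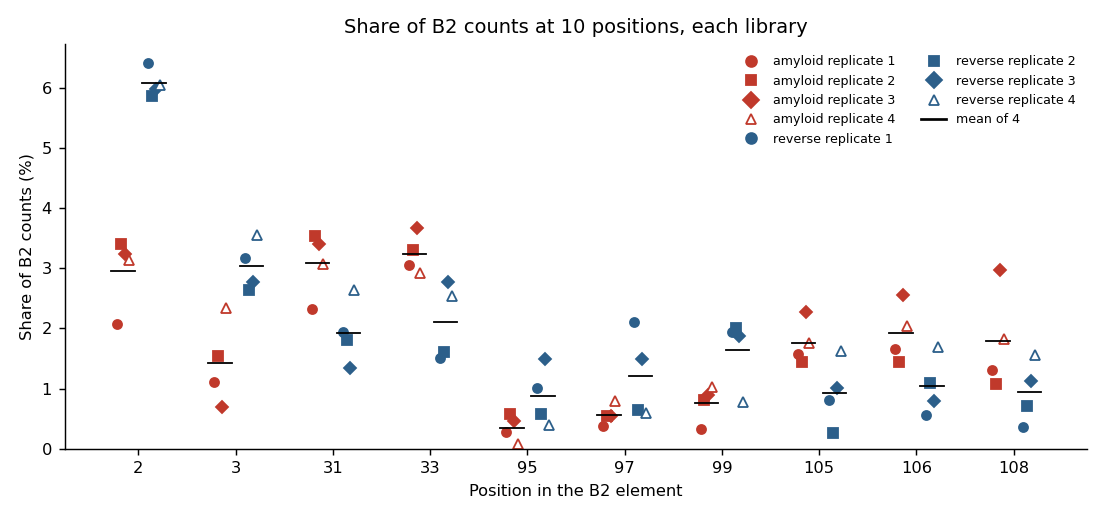
Share of the B2 counts (percent, y axis) at 10 of the named positions (x axis), with 1 symbol per library, Aβ42 in red and reverse in blue; bars are means of 4 and open triangles are replicate 4 of either group. At positions 2 and 3 the colours are apart, and at positions 99 and 105 to 108 the blue triangle lies with the red symbols.

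Toward the 3′ side, the share at position 99 was lower with Aβ42, with 3 of the 4 reverse libraries above every Aβ42 library. At position 99 the share was 0.326%, 0.812%, 0.886% and 1.02% with Aβ42, and 1.95%, 2.00%, 1.87% and 0.777% with the reverse peptide. The first 3 reverse libraries were nearly equal and above every Aβ42 library, while reverse replicate 4 lay inside the Aβ42 range. The log2 change was -1.11 ± 0.34 (adjusted p = 0.0410 by edgeR). This call was lost without Aβ42 replicate 1 (adjusted p = 0.167), Aβ42 replicate 3 (0.0542), reverse replicate 1 (0.376), reverse replicate 2 (0.137) or reverse replicate 3 (0.193), and held without Aβ42 replicates 2 or 4 or reverse replicate 4, all by edgeR. It was also lost by edgeR with TMM scaling (adjusted p = 0.0788) or without a filter (0.0592) and by DESeq2 (0.169), and in all it was called in 7 of 17 alternatives.

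At positions 97 and 95 reverse replicate 4 was again the lowest reverse library, while at position 96, named after its values were seen, the means were level (0.823% with Aβ42 and 0.816% with the reverse peptide). At position 97 the share was 0.376%, 0.550%, 0.551% and 0.803% with Aβ42 and 2.11%, 0.645%, 1.49% and 0.589% with the reverse peptide. At position 95 it was 0.276%, 0.576%, 0.455% and 0.0730% against 1.01%, 0.581%, 1.49% and 0.400%. Reverse replicates 1 and 3 were high at both, and reverse replicates 2 and 4 were not. Both missed the threshold in all 8 libraries (log2 changes of -1.11 and -1.27, adjusted p = 0.0814 each by edgeR). Both passed without reverse replicate 4, at adjusted p = 0.00934 and 0.0155, position 97 also passed without reverse replicate 2 (0.0424) and position 95 without Aβ42 replicate 2 (0.0353). Summed over positions 95 to 99, Aβ42 libraries held 2.31%, 3.51%, 3.69% and 3.79%, and reverse libraries 7.47%, 5.10%, 7.58% and 3.75%. The borders of this stretch were set by positions of smallest p, and its sums were not tested.

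Between positions 105 and 108 the order of the means was the other way. Positions 100 to 104 lay between, with log2 changes from -0.20 to 0.18 and none called (named after their values were seen). At position 106 the share was 1.65%, 1.44%, 2.56% and 2.04% with Aβ42 and 0.568%, 1.10%, 0.801% and 1.70% with the reverse peptide. At position 108 it was 1.303%, 1.073%, 2.97% and 1.82% against 0.365%, 0.710%, 1.12% and 1.55%, and at position 105 it was 1.58%, 1.44%, 2.28% and 1.75% against 0.812%, 0.258%, 1.01% and 1.63%. At all 3, Aβ42 replicate 3 was the highest library and reverse replicate 4 the highest of its group, above Aβ42 replicates 1 and 2. None passed the test in all 8 libraries (log2 changes of 0.83, 0.87 and 0.82, adjusted p = 0.0850, 0.0850 and 0.0999 by edgeR). Without reverse replicate 4 all 3 passed, at log2 changes of 1.23, 1.29 and 1.26 (adjusted p = 0.00934, 0.0127 and 0.00934), and position 108 passed also without Aβ42 replicate 2 (adjusted p = 0.0471).

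The largest internal peak, at positions 31 to 34, was higher with Aβ42 on average. At position 31 the share was 2.33%, 3.53%, 3.40% and 3.06% with Aβ42 and 1.95%, 1.81%, 1.33% and 2.64% with the reverse peptide. At position 33, where the groups did not overlap, it was 3.06%, 3.30%, 3.66% and 2.92% against 1.50%, 1.61%, 2.78% and 2.54%. The log2 changes were 0.63 ± 0.25 and 0.59 ± 0.24 (adjusted p = 0.106 and 0.131 by edgeR), so neither was called. Positions 32 and 34 had means of 3.11% and 2.52% with Aβ42 and 2.20% and 2.03% with the reverse peptide, with overlapping groups. Position 31 passed without reverse replicate 4 (log2 change 0.82, adjusted p = 0.0301), and position 33 passed under none of the 17 alternatives.

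The peak at 47 and 48 had a similar order. At position 48 the share was 2.56%, 1.86%, 3.57% and 2.19% with Aβ42 and 1.299%, 1.74%, 1.17% and 2.24% with the reverse peptide. Reverse replicate 4 again lay among the Aβ42 libraries, and the log2 change of 0.62 ± 0.26 was not called (adjusted p = 0.142 by edgeR). Without reverse replicate 4 it was 0.84, with an adjusted p of 0.0357. At position 47 the means were 2.43% ± 0.559 and 1.86% ± 0.149 (SD, n = 4 each; adjusted p = 0.604).

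Summed in windows of 10 positions, the profile shifted from its 5′ end and from positions 91 to 100 toward positions 31 to 40 and 101 to 110. These 4 of 12 windows were called by edgeR, each at an adjusted p of 0.0450 (percent called 33.3). The first window, which holds only positions 2 to 10, had 17.5%, 15.9%, 15.1% and 15.2% with Aβ42 and 17.5%, 21.0%, 21.0% and 19.0% with the reverse peptide, a log2 change of -0.30 ± 0.10. Aβ42 replicate 1 and reverse replicate 1 were nearly level there. Window 31 to 40 had 14.8%, 16.8%, 17.7% and 16.9% against 12.4%, 11.0%, 11.5% and 16.1%, a log2 change of 0.37 ± 0.13. All Aβ42 libraries but replicate 1 lay above all reverse libraries.

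Window 91 to 100 had 7.39%, 6.73%, 6.35% and 6.31% with Aβ42 and 11.4%, 8.65%, 12.2% and 6.29% with the reverse peptide, a log2 change of -0.51 ± 0.19. Window 101 to 110 had 11.6%, 11.1%, 17.1% and 13.3% against 9.09%, 7.23%, 9.61% and 12.4%, a log2 change of 0.46 ± 0.17. In both, reverse replicate 4 alone made the groups overlap. In none of the 12 windows did all Aβ42 libraries lie on one side of all reverse libraries (0 of 12, 0%).

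The exact permutation test gave no window an adjusted p below 0.05. For the 4 windows the two-sided exact p was 0.0571, 0.0571, 0.143 and 0.0857 in order along the element, each with an adjusted p of 0.245, and 0 of 12 windows had an unadjusted p below 0.05 (4 did by edgeR). The smallest p that 4 against 4 allows is 0.0286. Adjusted over 12 windows, that p passes only when many windows reach it together, so this test could hardly have called a window. By edgeR 0 windows were called with TMM scaling, with windows started at position 2, with the total over positions above 20 or with positions 2 and 3 taken out of the total (4, 5, 4 and 3 had an unadjusted p below 0.05). In the last of these the first window, then holding positions 4 to 10, had a log2 change of 0.07. Windows called numbered 0 without Aβ42 replicate 2, 3 or 4 or without reverse replicate 2 or 3, 1 without reverse replicate 1, and 5 without Aβ42 replicate 1 or without reverse replicate 4. Position 2, by contrast, was called by edgeR with either scaling and by DESeq2. Its unadjusted exact permutation p was 0.0286, the smallest that 4 against 4 allows. Positions 3, 33, 66, 111 and 112 reached the same exact p, which was not adjusted over positions. The exact test therefore does not set position 2 apart from these or from the windows.

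**Figure D3:**
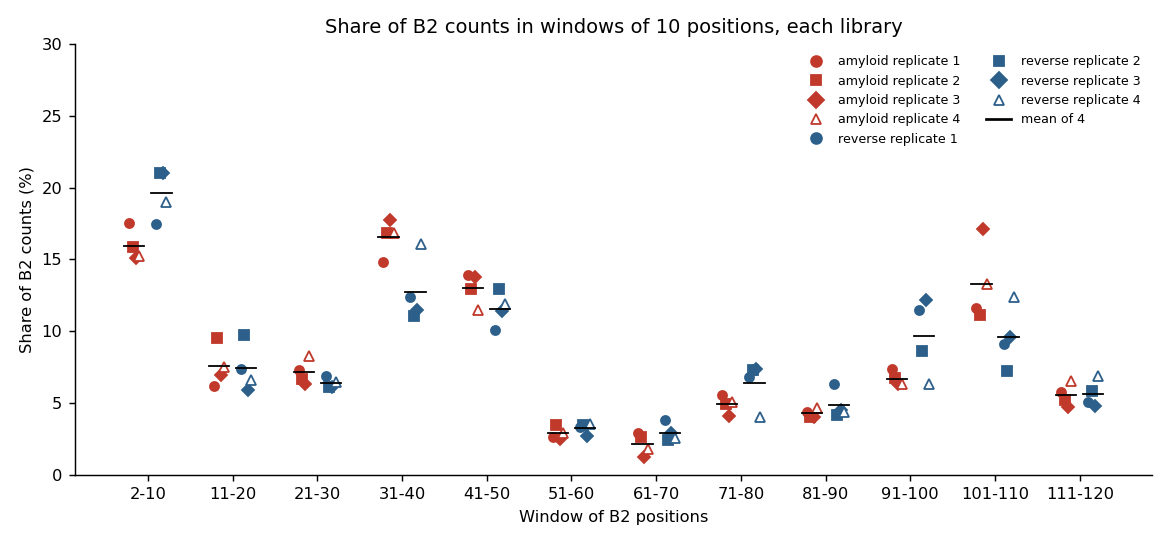
Share of the B2 counts (percent, y axis) in 12 windows of B2 positions (x axis), with 1 symbol per library, Aβ42 in red and reverse in blue; bars are means of 4 and open triangles are replicate 4 of either group. In windows 31 to 40, 91 to 100 and 101 to 110 reverse replicate 4 lies with the Aβ42 libraries, at 16.1%, 6.29% and 12.4%.

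The other 8 windows were not called. Window 11 to 20 held 7.55% ± 1.44 with Aβ42 and 7.40% ± 1.66 with the reverse peptide, and window 111 to 120 held 5.56% ± 0.775 and 5.65% ± 0.937 (SD, n = 4 each). Windows 21 to 30 and 41 to 50 were higher with Aβ42 on average, at 7.14% against 6.38% and 13.0% against 11.6%. The 4 windows from 51 to 90 were lower on average, at 2.88% against 3.27%, 2.16% against 2.94%, 4.91% against 6.37% and 4.27% against 4.83%. Window 71 to 80 was 6.82%, 7.29%, 7.37% and 4.00% in reverse replicates 1 to 4, and it passed without reverse replicate 4 (log2 change -0.54, adjusted p = 0.00547 by edgeR).

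Measures of the whole profile did not separate the groups. The internal share, which is the percent of counts at positions above 20, was 76.3%, 74.6%, 78.0% and 77.2% with Aβ42 and 75.2%, 69.2%, 73.0% and 74.4% with the reverse peptide. It was higher with Aβ42 by 3.54 percentage points, and the exact permutation test gave a two-sided p of 0.0571 (0.171 adjusted over 3 measures) and overlap only between Aβ42 replicate 2 and reverse replicate 1. A single library's 95% Wilson interval spanned 75.6% to 78.8% in Aβ42 replicate 4 and 66.9% to 71.5% in reverse replicate 2. Such intervals hold counting error within 1 library alone. The reads carry no molecular identifiers and may be copies of 1 molecule, which would make the intervals too narrow. The count-weighted mean position was 52.9 ± 1.60 and 52.0 ± 2.03 (SD, n = 4 each; exact permutation p = 0.543). Over positions above 20 alone it was 66.5 ± 1.06 and 68.5 ± 1.22 (exact permutation p = 0.0571), lower with Aβ42. The effective number of positions, which is the exponential of the Shannon entropy and is smaller when counts gather at few positions, was 83.5 ± 5.71 and 87.6 ± 2.97 (exact permutation p = 0.343). Taken on counts thinned to 1550 per library, it was 81.7 and 86.5 (exact permutation p = 0.171).

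In the anti-Hsf1 libraries, 3 for each peptide, the difference at the 5′ end was smaller on average and was not called. Hsf1 encodes the main transcription factor of the heat shock response. Its level in the long RNA of the libraries labelled anti-Hsf1 was 27.7, 44.0 and 30.8 TPM (a length-scaled transcript abundance) with Aβ42, below all 4 Aβ42 libraries with scramble LNA (60.3, 70.7, 77.1 and 80.0 TPM). With the reverse peptide it was 59.9, 45.7 and 49.9 TPM, inside the range of the 4 scramble libraries (54.0, 42.9, 70.6 and 58.9 TPM), so the targeted gene did not show the label there. Genes that were not targeted were lower in the same 3 Aβ42 libraries too: 22 genes of RNA polymerase III and its factors summed to 439.2, 586.3 and 443.0 TPM there and to 775.8 to 867.9 TPM in the 4 Aβ42 libraries with scramble LNA, and 7 Polycomb genes to 1510, 1833 and 1503 against 2579 to 3207 TPM. The lower Hsf1 level is therefore no check of the label in these libraries. The short-RNA library of reverse peptide and anti-Hsf1 with replicate number 3 is titled short RNA but described as long RNA, and its file holds B2 counts.

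At position 2 the anti-Hsf1 libraries held 5.51%, 8.61% and 3.90% with Aβ42 and 6.65%, 8.70% and 7.86% with the reverse peptide. The groups overlapped, and all 3 Aβ42 libraries lay above the highest Aβ42 library with scramble LNA (3.40%). Position 3 was 3.37%, 2.23% and 2.31% against 2.54%, 3.21% and 3.54%. At position 99 it was 1.38%, 1.53% and 1.20% against 0.951%, 1.12% and 1.29%, so the order of the means was opposite to that with scramble LNA. B2 totals there were 1961, 1835 and 2075 with Aβ42 and 2209, 2150 and 2799 with the reverse peptide.

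Whether the peptide difference itself differed between LNAs was tested as an interaction over all 14 libraries. As labelled, the LNAs differ in dose as well as in target (50 uM scramble, 150 nM anti-Hsf1), and these cannot be told apart. By edgeR 0 of 94 positions were called (0%), and 9 had an unadjusted p below 0.05. The interaction was -0.71 at position 2 (adjusted p = 0.618), -0.94 at position 3 (0.275) and -1.41 at position 99 (0.130), all log2. Without reverse replicate 4 of the scramble group, 5 of 92 positions were called, which were 30 and 48 with a more positive and 95, 97 and 99 with a more negative change under scramble LNA (position 30 is named after its value was seen). That fit was added after the data were seen, and the interaction was not refitted without any other library. Under anti-Hsf1 alone, edgeR called 0 of 94 positions (0%), and 1 had an unadjusted p below 0.05. In windows 0 of 12 were called for the peptide under anti-Hsf1 (0%, none at an unadjusted p below 0.05) and 0 of 12 for the interaction (0%). By edgeR the only window with an unadjusted p below 0.05 for the interaction was 91 to 100 (log2 -0.73 ± 0.26, adjusted p = 0.0862). A permutation of the LNA labels within each peptide gave an unadjusted p of 0.0424 for that window and 0.0384 for window 41 to 50. Such a permutation assumes no effect of the LNA within either peptide, so its small p is not specific to an interaction. Among the whole-profile measures and their alternatives, the mean position above 20 had the smallest p for a difference in its change between LNAs. That difference was -3.39 positions (permutation p = 0.0229, adjusted over 4 measures 0.0914). This measure is an alternative to the mean position and was picked with its p known. More measures were computed than the 4 in the adjustment, so the adjusted p is too small.

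**Figure D4:**
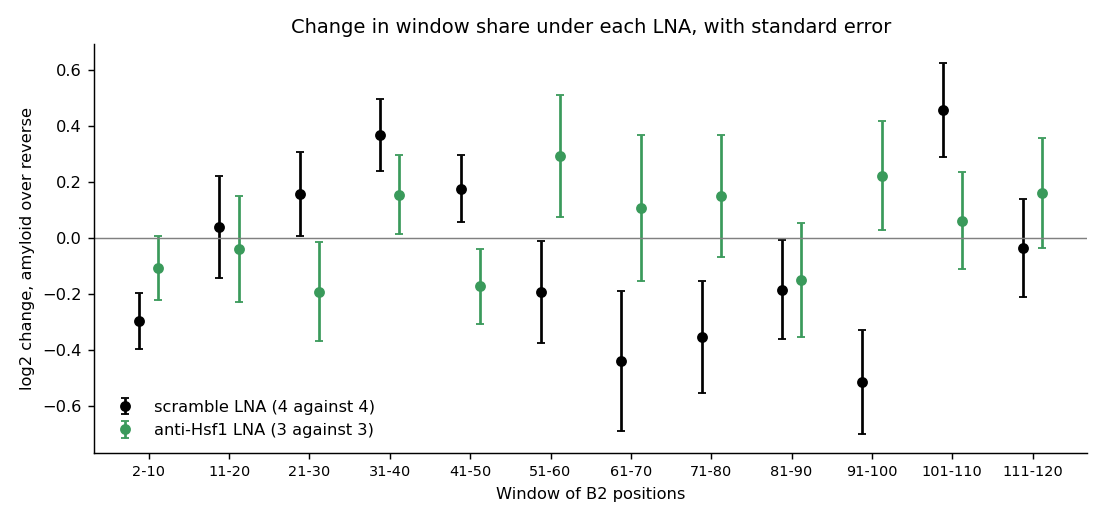
Log2 change of the share in each window of B2 positions, Aβ42 over reverse (y axis), under scramble LNA in black and anti-Hsf1 LNA in green; points are edgeR estimates and bars their standard errors. Under scramble LNA window 91 to 100 lies at -0.51 and under anti-Hsf1 at 0.22.

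The long RNA of the same cultures was read for genes that act on B2 RNA. Per the series' design text, RNA was split into a short and a long part, and libraries were matched by group and replicate number. No gene was called between Aβ42 and reverse peptide under scramble LNA by limma (0 of 17291 genes, 0%), with 1489 (8.61%) at an unadjusted p below 0.05 and a smallest adjusted p of 0.570. All changes are on the log2(TPM + 1) scale. The median gene was 0.15 higher with Aβ42, and 0.00 after scaling by the median of ratios, so the changes of single genes are given with both. Of all genes tested, 72.0% were above zero, and 50.5% after scaling. Overlap of the groups is given below on unscaled TPM, where most genes were higher with Aβ42. The share of all genes without overlap was not counted, so a lack of overlap is not read as a result about a gene.

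Among 22 genes of RNA polymerase III, which makes B2 RNA, and its factors, 0 were called, 20 were above zero (16 scaled) and the median change was 0.24 (0.09 scaled). The genes of smallest p were Bdp1, a subunit of the initiation factor TFIIIB, and Gtf3c5, a subunit of TFIIIC, which binds the internal promoter. Bdp1 (ENSMUSG00000049658, chromosome 13, 100017994 to 100104070, GRCm38) was at 47.2, 32.4, 47.4 and 45.8 TPM with Aβ42 and 23.5, 25.1, 23.4 and 32.2 TPM with the reverse peptide. The groups did not overlap, by a margin of 32.4 against 32.2 TPM, and the log2 change was 0.70 ± 0.21 (0.54 scaled; limma adjusted p = 0.570). Gtf3c5 (ENSMUSG00000026816, chromosome 2, 28566311 to 28583751) was at 27.1, 29.0, 32.5 and 27.6 against 21.0, 19.7, 23.3 and 26.4 TPM, also without overlap (log2 change 0.35 ± 0.14, 0.19 scaled; limma adjusted p = 0.570).

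Among 7 genes of the Polycomb complex that holds Ezh2, 0 were called, 7 were above zero (5 scaled) and the median change was 0.22 (0.05 scaled). Ezh2 (ENSMUSG00000029687, chromosome 6, 47530139 to 47595341), the methyltransferase of that complex, was at 142.3, 132.9, 110.0 and 94.2 TPM with Aβ42 and 99.9, 116.5, 105.7 and 96.3 TPM with the reverse peptide. The groups overlapped widely (log2 change 0.18 ± 0.16, 0.01 scaled; limma adjusted p = 0.678). Rbbp7 and Rbbp4, histone-binding subunits, had the smallest p in this list, at 2402 ± 269 against 1967 ± 342 TPM and 183.7 ± 13.8 against 157.9 ± 12.1 TPM (SD, n = 4 each), and neither was called (limma adjusted p = 0.573 and 0.575).

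Of 12 heat shock genes, 11 were tested, 0 were called, 10 were above zero (6 scaled) and the median change was 0.15 (0.00 scaled), the same as over all genes. Hsf1 (ENSMUSG00000022556, chromosome 15, 76477422 to 76501913), with the scramble values given above, had means of 72.0 ± 8.74 and 56.6 ± 11.5 TPM (SD, n = 4 each). Its log2 change was 0.36 ± 0.18 (0.19 scaled; limma adjusted p = 0.570), and reverse replicate 3 lay among the Aβ42 libraries. Hspa8, the constitutive Hsp70 chaperone, was at 944.1, 947.1, 1029 and 1024 TPM with Aβ42 and 783.5, 776.8, 891.4 and 938.2 TPM with the reverse peptide. The groups did not overlap, but the log2 change was 0.22 ± 0.13 (0.06 scaled) and was not called (limma adjusted p = 0.581).

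Immediate-early genes, which are switched on within minutes of a stimulus, divided the libraries across the peptides. Of 15 such genes, 13 were tested, 0 were called and the median change was 0.68 (0.52 scaled). Their summed level was 247.4, 266.7, 2012 and 2092 TPM in Aβ42 replicates 1 to 4, and 294.7, 260.4, 326.5 and 2045 TPM in reverse replicates 1 to 4. Aβ42 replicates 3 and 4 and reverse replicate 4 were thus high, and the other 5 libraries were low. Jun and Fosb, subunits of the AP-1 transcription factor, had the smallest p in the list. Fosb was at 3.72, 3.93, 105.4 and 113.6 TPM with Aβ42 and 4.15, 4.21, 5.82 and 57.4 TPM with the reverse peptide (log2 change 1.183 ± 1.09, 1.04 scaled; limma adjusted p = 0.699). Jun was at 49.0, 47.8, 173.2 and 176.7 against 50.8, 38.0, 50.6 and 128.8 TPM (log2 change 0.62 ± 0.45, 0.46 scaled; limma adjusted p = 0.632). Junb, named after its values were seen and plotted as an example, was at 274.6 and 265.6 TPM in Aβ42 replicates 3 and 4, at 286.4 TPM in reverse replicate 4 and at 18.0 to 25.9 TPM in the other 5.

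**Figure D5:**
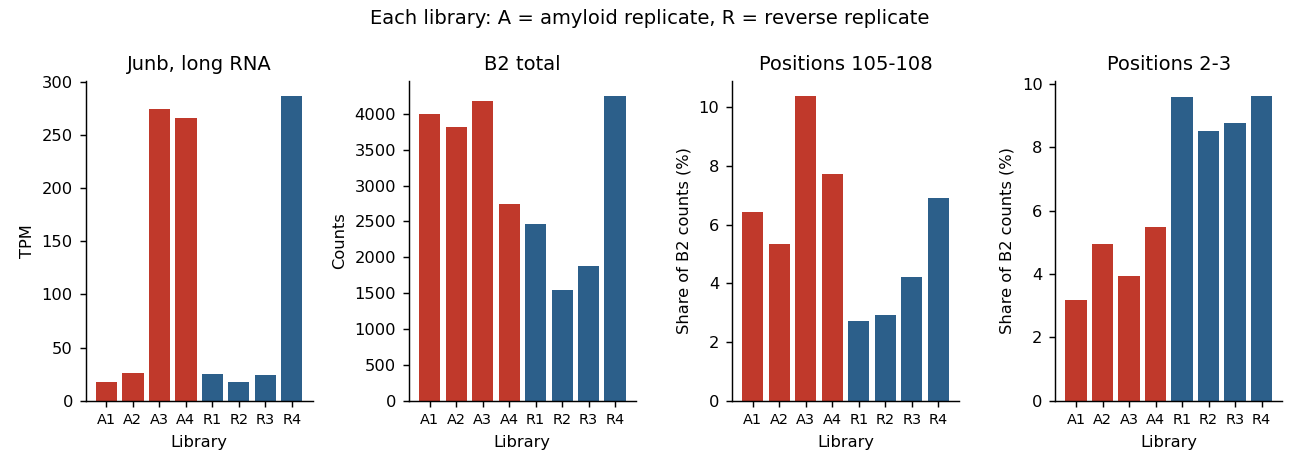
Level of Junb in long RNA (TPM), B2 total (counts), and share of the B2 counts at positions 105 to 108 and at positions 2 and 3 (percent) in each scramble-LNA library, Aβ42 in red and reverse in blue; each bar is 1 library and starts at 0. Reverse replicate 4 is high in the first 3 panels, with 286.4 TPM, 4246 counts and 6.90%, and stays with the other reverse libraries at positions 2 and 3, with 9.61%. Both stretches of positions were chosen after their values were seen.

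The B2 profile of the same 3 libraries was read beside this. At positions 105 to 108 they held 10.4%, 7.73% and 6.90% of the counts, and these were the highest 3 values of the 8 (6.41% and 5.34% in Aβ42 replicates 1 and 2, and 2.72%, 2.90% and 4.22% in reverse replicates 1 to 3). The borders of this stretch too were set by positions of smallest p for the peptide difference. At positions 2 and 3 the same 3 libraries held 3.93%, 5.47% and 9.61%, so that there reverse replicate 4 lay with the other reverse libraries and Aβ42 replicates 3 and 4 with the other Aβ42 libraries. With these 3 libraries left out, 2 Aβ42 and 3 reverse libraries remained, and edgeR called 4 of 97 positions, which were 2, 3, 97 and 99, all lower with Aβ42. In windows 2 of 12 were called, and the internal share was higher by 2.93 percentage points (exact permutation p = 0.300, where 2 against 3 allows no less than 0.1). The part of the immediate-early genes or of the B2 total in the differences at positions 105 to 108 was not tested.

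The neuronal label was checked against markers in long RNA. Of 8 neuronal markers, 6 were below 0.1 TPM in all 14 HT-22 libraries, among them Rbfox3, Snap25, Syt1, Nefl and Gap43 at 0 in the 8 libraries with scramble LNA. Tubb3, a neuronal tubulin, was at 1.77 to 7.16 TPM in those 8. The summed level of the 8 was 2.04 to 6.67 TPM with Aβ42 and 2.35 to 7.33 TPM with the reverse peptide. Defining markers of mature neurons such as Rbfox3, Snap25 and Syt1 were therefore not detected in those 8 libraries. TPM does not give the depth behind a value of 0. Among markers of other cells, 5 of 6 astrocyte, 5 of 6 microglia, all 5 oligodendrocyte and all 3 endothelial genes had means under 1 TPM. The exceptions were Slc1a3, a glutamate transporter of astrocytes (15.1 to 54.1 TPM), and Tmem119, a membrane protein used to mark microglia (6.60 to 66.0 TPM). In the 3 libraries high in immediate-early genes Tmem119 was at 56.3 to 66.0 TPM and Slc1a3 at 15.1 to 19.7 TPM, against 6.60 to 15.0 and 41.0 to 54.1 TPM in the other 5, while the defining microglial genes P2ry12 and C1qa were at 0 in all 8.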

How the data were processed

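Short-RNA and long-RNA libraries of HT-22 cells were grouped by their labels. The deposited B2 tables hold raw counts at each position, per the file headers, with no scaling by the authors. The authors' long-RNA tables hold TPM for each gene, per the file headers. The submitters' processing notes name FastQC, cutadapt 1.18, BWA 0.7.17, HISAT2 2.1.0, bedtools 2.26.0 and StringTie 1.3.4d, with builds mm10 and GRCm38. Their roles, the B2 reference sequence and the counting rule are not stated in the sources used here, so no sequence is printed. B2 totals of 1550 to 4246 counts set the precision of a share.

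Counts by position (mean of at least 10) and by window were tested with edgeR 4.0.16 (quasi-likelihood, R 4.3.3) taking each library's B2 total as its size, and DESeq2 1.42.0 as an alternative. Measures with 1 value per library were tested by two-sided exact permutation (Python 3.11.15). TPM was tested with limma 3.58.1 on log2(TPM + 1), for genes with a mean of at least 1 TPM over the 14 HT-22 libraries, all of which entered that fit. P-values were adjusted by Benjamini-Hochberg over all features tested, and called below 0.05. Scripts were tested on simulated data. Alternatives covered scaling, filters, window borders, the replicate number as a block and leaving out each library.

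Positions named are the 10 of highest mean share, all called, and the 5 of smallest p in each direction. Genes named are Hsf1, Ezh2 and, where none of a list was called, its 2 of smallest p. The comparison, positions, lists and markers were chosen with earlier results of these data known. Mouse hippocampus libraries were not used.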

Additional observations from a re-analysis of the deposited data

Results flagged for a closer look

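In 82 groups of 4 libraries (named positions, windows, whole-profile measures and named genes), 6 held a library whose gap to the nearest other was above Dixon's critical share of the group's range, and chance alone gives about 5% of groups. Position 99 was at 0.777% in reverse replicate 4, below the other reverse libraries, and window 71 to 80 was at 4.00% in the same library. Window 81 to 90 was at 6.29% in reverse replicate 1, above the other reverse libraries. Bdp1 was at 32.4 TPM in Aβ42 replicate 2, below the other Aβ42 libraries. Jun at 128.8 TPM and Fosb at 57.4 TPM were high in reverse replicate 4. Of the 6, 4 were in reverse replicate 4. The groups are not independent, as position 99 was named by its small p and Jun and Fosb are of 1 list. The 6 of 82 are thus not read as more than chance gives.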

How the results depend on the processing

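Alternatives left the 3 called positions at 0 with the total over positions above 20, 6 with 14 libraries in 1 fit and, added after seeing the data, 1 (position 99) with positions 2 and 3 out of the total; leaving out 1 library gave 1 to 12. The 4 called windows became 0 with TMM, with windows from position 2, with the total over positions above 20, by the exact permutation test and with positions 2 and 3 out of the total, where the first window turned to a log2 change of 0.0742, and 2 in the 5 libraries low in immediate-early genes; leaving out 1 library gave 0 to 5. The exact permutation test could hardly have called a window, as its smallest p is 0.0286 before adjustment. The internal share above 50 was lower with Aβ42 by -2.51 points instead of higher by 3.54. The mean position turned from 0.82 to -2.06 over positions above 20 and to -0.32 in the 5 libraries low in immediate-early genes; leaving out 1 library gave -0.13 to 1.53. The cause of these changes was not tested. The interaction went from 0 to 5 positions without reverse scramble replicate 4, a fit added after the data were seen. The count of long-RNA genes was 0 in every alternative except 1 gene (Dcun1d1, named after its value was seen) without reverse replicate 4, giving a range of 0 to 1, and 1 (Gm12013, likewise) with the replicate block.

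The replicate numbers did not pair the libraries: the deviations of same-numbered Aβ42 and reverse libraries correlated at -0.107, 0.0105, -0.011 and 0.22 over 100 positions. With the replicate block 2 positions, 2 windows, 3 interaction positions (95, 97 and 99) and 1 gene were called, and the exact permutation p of the internal share was 0.125. B2 totals limit the shares, and positions with a mean under 10 counts were not tested. Over the named positions, windows and genes, 548 values were recomputed: 475 kept their direction and side of the threshold, 49 fell short of it, 16 came to pass it and 8 changed sign, and the 117 of long-RNA genes did none of these. The sign changes were the first window above and 2 windows that were not called: 11 to 20, at 0.0387 with all 8 libraries, was -0.0335 with positions 2 and 3 out of the total and ran from -0.0973 to 0.186 leaving out 1 library (below zero without Aβ42 replicate 2, reverse replicate 3 or reverse replicate 4), and 111 to 120, at -0.0364, was 0.0752 in the 5 libraries low in immediate-early genes and ran from -0.118 to 0.0882 leaving out 1 library (above zero without Aβ42 replicate 3 or reverse replicate 4), all log2.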
